A study of Mus musculus with 9 samples.

Results

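Of 6 mouse brain tumor stem cell (BTSC) libraries with Gpd1 knocked out (KO), 2 lay nearest to the controls in their expression profiles. Of these, 1 came from sgRNA1 (sgRNA1 KO replicate 3, called the sgRNA1 colony below) and 1 from sgRNA2 (sgRNA2 KO replicate 1, the sgRNA2 colony). These 2 of the 9 libraries of the study were picked from their measured profiles. Every contrast between them and the controls is therefore a description without a test, with the values of each colony given separately. The medians of the cell cycle lists were reduced least in these 2 KO libraries, and the results give what else stood away from control there.

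The study profiled poly(A) RNA in 3 groups of 3 libraries from cultured mouse BTSC. The control group holds BTSC libraries whose labels name no guide. In the sgRNA1 KO and sgRNA2 KO groups, Cas9 and a guide against Gpd1 had been delivered on a vector that the labels name lentiCRISPv2 by lipofection. Per the labels' protocols, puromycin then selected transfected cells, single-cell colonies were picked and expanded, and the KO was checked by Western blot and by sequencing of colony DNA. The labels do not say whether each library is its own colony, nor whether the controls went through transfection, selection or colony picking. Puromycin and growth from 1 cell thus cannot be told apart from loss of Gpd1, and p-values measure the spread between these libraries only.

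The enzyme made by Gpd1 sits in the cytosol and converts dihydroxyacetone phosphate, a glycolytic intermediate, to glycerol-3-phosphate with NADH, as a glycerol-3-phosphate dehydrogenase. Glycerol-3-phosphate is the backbone for glycerolipids and, through the mitochondrial enzyme Gpd2, feeds electrons into the respiratory chain. Glioblastoma stem-like cells move between states, of which a mesenchymal state (matrix, caveola and annexin genes) and an astrocyte-like or progenitor-like state are the best known, and they may be proliferating or quiescent.

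The guides show where the colonies were targeted. The capitals mark the PAM, taken from the transcript next to each match.
sgRNA1: aaagtctgcattgtcggctcTGG
sgRNA2: tgcattgctacccacgatctTGG
The sgRNA1 match lies at chr15:99717620-99717639 on the plus strand (mm10), in coding sequence of exon 1 of the 8 exons of Gpd1. The sgRNA2 match lies at chr15:99718169-99718188 on the minus strand, in coding sequence of exon 2.

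The deposited values are normalized read counts rounded to whole numbers, with totals of 39974295 in the sgRNA1 colony, 39781901 in the sgRNA2 colony and 41393139 to 42975283 in the controls. Of 21899 genes, 15543 had a mean of at least 10 over the 2 colonies and 3 controls and are described here. The distance to control, as the root mean square of log2 differences over these genes, was 0.826 in the sgRNA1 colony and 0.789 in the sgRNA2 colony. The next nearest library, sgRNA2 KO replicate 3, stood at 1.06, and the most distant, sgRNA1 KO replicate 1, at 1.27. Each control lay 0.233 to 0.265 from the mean of the other controls. A difference of at least 2-fold from the control mean was seen for 14.0% of genes in the sgRNA1 colony and 12.9% in the sgRNA2 colony, against 24.4% to 33.8% in the other 4 KO libraries. Both colonies were picked for lying nearest to control, so the smaller distances and shares follow from that choice. Smaller list medians below may follow from it in part.

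Across genes the correlation between the 2 colonies, which carried different guides, was r = 0.991, against 0.952 to 0.984 in the other pairs of KO libraries. Both colonies were picked for lying near the controls, a choice that itself brings them near each other, and genes are not independent replicates, so this r is a description only. Between the colonies, 541 genes (3.48%) differed by at least 2-fold, 231 higher in the sgRNA1 colony and 310 higher in the sgRNA2 colony. Only 3 genes stood past 2-fold on opposite sides of control in the 2 colonies.

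A gene is called higher or lower in both colonies below when each colony was at least 2-fold from the control mean on log2(value + 1) and outside the range of the 3 controls. By this rule 718 genes were higher (4.62% of those described) and 746 were lower (4.8%). The 1464 genes together made up 9.42%. At least a 4-fold difference in both colonies was reached by 122 higher and 206 lower genes, and at least 16-fold by 11 and 23. Without a size limit, 5211 genes (33.5%) lay above every control in both colonies and 6074 (39.1%) below, 11285 (72.6%) in all. The controls resembled each other so closely that lying outside their range is common. List counts below are to be read against these shares.

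The grouping by labels, 6 KO against 3 control libraries, was tested with limma over 15827 genes. It called 6227 genes (39.3%) at an adjusted p under 0.05, of which 3026 (19.1%) were higher in KO and 3201 (20.2%) lower. The 2 colonies are 2 of those 6 KO libraries, so a pass in limma is not separate evidence about them. Limma values below come from this fit, and limma counts of list members are to be read against the shares of 19.1% and 20.2%.

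Gpd1 itself (chromosome 15, 99717515 to 99725005) was counted at 25106, 26566 and 25836 in the controls, 21351 in the sgRNA1 colony and 10812 in the sgRNA2 colony. The sgRNA1 colony thus held 82.6% of the control mean and the sgRNA2 colony 41.8%, both below every control, and the sgRNA1 colony was the highest of the 6 KO libraries. A frameshift need not lower the RNA, so these counts do not check the KO. In limma Gpd1 missed the threshold in KO against control (log2 -1.99, SE 0.72, adjusted p = 0.0516). The opposite strand holds exons of Gm16537 that overlap Gpd1, and reads of both could have been counted together.

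Gpd1l encodes a related cytosolic enzyme with the same reaction. It stood at 5337, 4983 and 5017 in the controls, 6754 in the sgRNA1 colony and 6691 in the sgRNA2 colony. Both colonies lay above every control, 1.32-fold and 1.31-fold over their mean, and Gpd1l rose in KO against control (log2 0.48, SE 0.09, adjusted p = 0.00496 in limma). Gpd2, the mitochondrial partner of the shuttle, was near control in the colonies, at 10079 and 9080 against 9913, 10089 and 9954. In the other 4 KO libraries Gpd2 lay between 5328 and 7308, and it missed the limma threshold (adjusted p = 0.0779).

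DNA replication and S phase genes were modestly lower in the colonies. The median difference over the 30 members, all described, was -0.72 on the log2 scale in the sgRNA1 colony and -0.78 in the sgRNA2 colony, against -0.03 in each over all genes described. The other 4 KO libraries had medians from -3.41 to -1.13. In both colonies 30 of 30 members lay below every control, against 39.1% of all genes described. Only 2 were lower by the 2-fold rule, near the 4.8% of all genes described. In limma 22 of the 30 fell and 0 rose.

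Those 2 were Ccne2, cyclin E2 of S phase entry, and Cdc6, which loads the replicative helicase. Ccne2 was counted at 2627, 3012 and 2626 in the controls and at 1145 and 1185 in the sgRNA1 and sgRNA2 colonies. The other 4 KO libraries held 201 to 304, so the colonies lay between them and control. For Cdc6 the controls held 2049, 2465 and 2399 and the colonies 976 and 1083, while sgRNA2 KO replicate 3 stood at 1047, within the range of the colonies. Cdc6 lies on chromosome 11, whose median log2 difference was 0.45 in sgRNA2 KO replicate 3. Mcm6, a subunit of that helicase, stood at 22381, 24401 and 24071 in the controls, 13192 and 13363 in the colonies and 2502 to 9058 in the other KO libraries. Both Ccne2 (log2 -2.65, SE 0.57, adjusted p = 0.00705) and Cdc6 (log2 -2.71, SE 0.89, adjusted p = 0.0359) fell in limma. Cdc6 no longer passed without control replicate 1, 2 or 3 (adjusted p = 0.0857, 0.11 and 0.104 in limma).

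**Figure D1:**
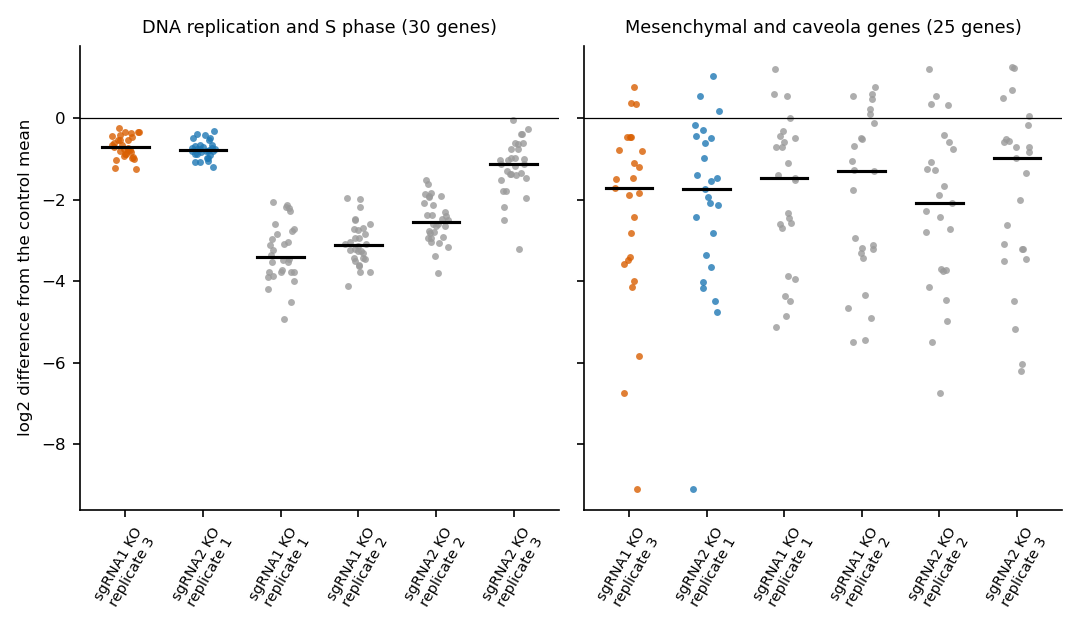
Log2 difference from the control mean of every described gene (points) in the 6 KO libraries (x axis), for DNA replication genes (left) and mesenchymal and caveola genes (right); the black bar is the median. For replication genes the 2 colonies have medians of -0.72 and -0.78 against -3.41 to -1.13 in the other 4 libraries, and for mesenchymal genes -1.71 and -1.75 against -2.09 to -0.99.

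Mitosis and cytokinesis genes differed less still, with medians of -0.42 and -0.45 over 30 members and -2.63 to -0.84 in the other 4 KO libraries. Below every control in both colonies lay 29 of 30, against 39.1% of all genes described, but 0 reached the 2-fold rule. Mki67, the Ki-67 proliferation antigen, was counted at 40591, 41662 and 39014 in the controls, 22511 in the sgRNA1 colony and 25529 in the sgRNA2 colony. It fell in limma (log2 -1.68, SE 0.42, adjusted p = 0.0126; 0.0538 without control replicate 2), and the other 4 KO libraries held 6593 to 14312. Top2a, the topoisomerase that untangles chromosomes before division, stood at 37781 and 35351 in the colonies against 50288, 51514 and 50416, and missed the limma threshold (adjusted p = 0.0510), which it passed with quantile normalization (0.0479) and with the replicate block (0.0451). The kinesin gene Kif23, needed for cytokinesis, was nearest to 2-fold, at 2236 and 2199 against 4010, 4656 and 4685. In limma 15 of the 30 members fell and 0 rose.

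Cell cycle inhibitors had 4 of 19 members higher and 0 lower in both colonies. Btg2, an antiproliferative transcriptional cofactor, was counted at 3958, 2570 and 2844 in the controls, 10417 in the sgRNA1 colony and 15172 in the sgRNA2 colony. Ccng2, the cyclin G2 gene associated with cell cycle exit, stood at 1112, 738 and 814 and then at 2948 and 3382. Both colonies lay above every control for these genes, and in each case control replicate 1 was the highest control. Btg1 (1865 and 1769 against 748 to 977) and the imprinted p57 gene Cdkn1c (43 and 24 against 7 to 15) were the other members. Cdkn1a, the p21 gene, held 11086 and 12344 against 9754 to 11007 and missed the limma threshold (adjusted p = 0.405). In limma 9 of the 19 rose, among them Btg2 (log2 2.22, SE 0.24, adjusted p = 0.000537), and 1 fell.

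In contrast to the cell cycle genes, the mesenchymal and caveola genes were as low in the 2 colonies as in the other KO libraries. Of 30 genes listed, 25 were described, and their median was -1.71 in the sgRNA1 colony and -1.75 in the sgRNA2 colony, within the range of -2.09 to -0.99 of the other 4. By the 2-fold rule 16 were lower in both colonies and 0 higher. In limma 18 of the 25 fell and 1 rose. The member that rose was Ptrf, which encodes the caveola coat protein cavin-1, at 195 and 310 against 142 to 163.

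S100a10, the partner of annexin A2 at the plasma membrane, was counted at 531, 584 and 519 in the controls and at 0 in both colonies. With a floor of 3 counts per library it was at least 182-fold lower in each. The other 4 KO libraries held 18 to 87, so the colonies were the lowest of all 9 libraries. Annexin A2 itself, Anxa2, held 2501, 2844 and 2829 in the controls, 227 in the sgRNA1 colony and 265 in the sgRNA2 colony. The neighbouring gene S100a11 stood at 45 and 26 against 426, 524 and 514. All 3 fell in limma, with adjusted p of 0.0169 for S100a10, 0.00299 for Anxa2 and 0.000448 for S100a11. For S100a10 the adjusted p in limma ran from 0.00531 to 0.0648 over the alternatives, and it missed without control replicate 1, 2 or 3 (0.0536, 0.0648 and 0.0597).

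Cav1 and Cav2 encode the caveolins that shape caveolae, and they lie beside each other on chromosome 6. Cav1 was counted at 95, 111 and 115 in the controls, 0 in the sgRNA1 colony and 3 in the sgRNA2 colony. Cav2 held 3671, 3912 and 3707, then 1021 and 894. Met, the hepatocyte growth factor receptor gene on the same stretch of chromosome 6, stood at 276, 378 and 411 in the controls and at 14 and 15 in the colonies. For all 3 genes the colonies and the controls did not overlap, and the other 4 KO libraries were also below every control. Flot2, which encodes the membrane raft protein flotillin-2 and is not in the list, was at 2 and 5 against 157, 148 and 157.

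Smooth muscle actin, Acta2, was counted at 2202, 2290 and 2117 in the controls and at 138 and 175 in the colonies. Lgals1, the galectin-1 gene, went from 42977, 47874 and 41778 to 12313 and 11613. For the galectin gene sgRNA2 KO replicate 3 stood higher still among the KO libraries, at 17329, and the other 3 held 4733 to 6785. Cd44, the hyaluronan receptor used as a mesenchymal glioma marker, stood at 1788 and 2101 against 5528, 5948 and 6061. Vimentin, Vim, held 71322 and 82375 against 148497 to 172358. Each of these 4 genes fell in limma, with adjusted p from 0.00118 to 0.00276. Emp1, an epithelial membrane protein gene, was lower in the colonies (560 and 1365 against 3857 to 4098) and stood at 3199 and 4234 in sgRNA1 KO replicates 1 and 2, and it missed in limma (adjusted p = 0.244). Zeb1, a mesenchymal transcription factor gene, held 30460 and 26997 against 23109 to 24508 and missed in limma as well (adjusted p = 0.0547).

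Of 38 collagen and matrix genes listed, 31 were described. Their medians were -1.01 and -1.08, within the range of -1.20 to -0.87 of the other 4 KO libraries, and 12 were lower and 0 higher in both colonies. Col6a1, a chain of the type VI collagen microfibril, was counted at 365, 395 and 437 in the controls, 1 in the sgRNA1 colony and 5 in the sgRNA2 colony. Its partner chain Col6a2 held 157, 167 and 195 and then 12 and 22. Col18a1, a basement membrane collagen and source of endostatin, stood at 49 and 102 against 1036, 1256 and 1298. These collagens were low in all 6 KO libraries.

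Fibronectin, Fn1, went from 10738, 11159 and 11182 to 1909 and 1963, within the 1074 to 2340 of the other KO libraries. Tenascin C, Tnc, a matrix glycoprotein of glioma, was less uniform, at 55279 and 47067 in the colonies against 102568 to 156662, at 5348 to 18584 in 3 other KO libraries and at 178764 in sgRNA2 KO replicate 3. Tnc missed the limma threshold (adjusted p = 0.0806). Basement membrane genes Col4a1 (654 and 511 against 464 to 494) and Lama5 (12369 and 14568 against 10067 to 10123) were above every control in both colonies and missed in limma (adjusted p = 0.889 and 0.673). In limma 15 of the 31 members fell and 1 rose, the rise being that of the metalloproteinase inhibitor gene Timp3 (6588 and 6580 against 3593 to 4767).

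Immediate-early genes encode transcription factors, AP-1 proteins among them, that respond to growth signals within minutes. Of 20 listed, 19 were described, and 7 were lower and 1 higher in both colonies, with medians of -0.63 and -1.0. Junb was counted at 555, 623 and 612 in the controls, 121 in the sgRNA1 colony and 116 in the sgRNA2 colony. Jun went from 2866, 4021 and 3758 to 1249 and 1260. Both fell in limma (adjusted p = 0.00356 and 0.000775), and for both the colonies did not overlap with the controls. Egr1 stood at 1041 and 910 against 3880 to 4426, and Fosl2 at 157 and 181 against 471 to 552. Fos, at 209 and 335 against 645 to 759, was lower in the colonies than in every other KO library (467 to 1363). These last 3 missed in limma (adjusted p = 0.181, 0.0599 and 0.531).

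The phosphatase gene Dusp1, which shuts down stress-activated kinases, was the 1 member higher in both, at 1419 and 1496 against 508, 498 and 469. Jund, an AP-1 gene linked to slower growth, held 1113 and 1061 against 562 to 720 and rose in limma (adjusted p = 0.00287). Over the 20 members in limma, 7 fell and 2 rose. Among 17 Ras-MAPK feedback targets, 5 were lower and 0 higher in both colonies. Cyclin D1, Ccnd1, was counted at 49394, 70271 and 66375 in the controls, 17091 in the sgRNA1 colony and 13600 in the sgRNA2 colony. The other 4 KO libraries had still less, 2178 to 8032, and Ccnd1 fell in limma (log2 -3.17, adjusted p = 0.00333). The ephrin receptor gene Epha2 went from 210, 353 and 339 to 52 and 40. The feedback inhibitor gene Spry2 held 9164 and 7347 against 8289 to 9184, and Etv4, an ETS transcription factor gene, held 5484 and 5495 against 4269 to 4534. Neither Spry2 nor Etv4 passed in limma (adjusted p = 0.573 and 0.570), where 6 of the 17 fell and 1 rose.

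Promoters of mesenchymal genes that were lower in both colonies were searched for the letters TGANTCA, the AP-1 type motif, which reads the same on both strands. The sequences are from RefSeq (GRCm38.p6), 250 bases before the gene start, 5′ to 3′ on the gene's strand, with the matches in capitals. They are shown as examples of genes lower in both colonies whose promoter holds a match.
S100a11, chr3:93520246-93520495, plus strand: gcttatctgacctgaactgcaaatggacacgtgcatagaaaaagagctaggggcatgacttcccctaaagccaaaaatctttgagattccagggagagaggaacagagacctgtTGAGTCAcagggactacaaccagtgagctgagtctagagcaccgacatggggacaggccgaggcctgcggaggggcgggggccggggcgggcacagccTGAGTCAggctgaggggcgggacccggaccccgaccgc
Cav2, chr6:17280935-17281184, plus strand: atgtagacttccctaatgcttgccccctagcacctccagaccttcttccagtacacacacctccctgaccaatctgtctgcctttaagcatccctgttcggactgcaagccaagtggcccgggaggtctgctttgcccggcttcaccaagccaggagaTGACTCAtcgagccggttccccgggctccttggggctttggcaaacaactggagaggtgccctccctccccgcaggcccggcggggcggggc
Plaur, chr7:24462233-24462482, plus strand: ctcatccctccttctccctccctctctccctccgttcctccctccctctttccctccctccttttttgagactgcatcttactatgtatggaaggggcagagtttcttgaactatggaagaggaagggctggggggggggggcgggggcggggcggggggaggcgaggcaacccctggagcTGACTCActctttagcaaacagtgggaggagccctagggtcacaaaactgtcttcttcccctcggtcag
The matches begin 136 and 38 bases before the start of S100a11, 92 before that of Cav2 and 69 before that of Plaur, the urokinase receptor gene, which held 3 and 1 in the colonies against 34, 53 and 46. Of the 16 mesenchymal genes lower in both colonies, 13 had a promoter in the table and 5 of these (38.5%) held a match, the others being Anxa2 and Emp1. Among the 9 that were not lower, 0 of 6 with a promoter did. The share was the same in the 12 largest falls (3 of 9 promoters, 33.3%) and the 12 largest rises (2 of 6, 33.3%). It was 6.87% over all 27018 promoters and 4.02% over the 10722 promoters of genes described. A match describes letters only and shows neither binding nor a cause.

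The 12 largest falls by the smaller of both differences were those of S100a10, Ifi203, Ifi202b, Col6a1, Nnat, Fam19a2, Itpripl2, Cav1, Ptprn, Flot2, Clcf1 and Met. All 12 fell in limma, with adjusted p from 2.55e-05 to 0.0169. Nnat, the imprinted neuronatin gene of neural development, was counted at 5076, 4173 and 4315 in the controls, 76 in the sgRNA1 colony and 101 in the sgRNA2 colony. It was 59.5-fold and 44.8-fold lower, and both colonies lay below the 111 to 855 of the other KO libraries. Ptprn, which encodes a secretory granule protein of neuroendocrine cells, stood at 29 and 43 against 1162, 1108 and 1228. The secreted peptide gene Fam19a2 held 7 and 6 against 192, 272 and 289.

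Clcf1, a cytokine of the interleukin-6 family that signals through STAT3, went from 370, 552 and 548 to 19 and 16. Its exons overlap those of AC109138.7 on the same strand. The interferon-inducible genes Ifi203 and Ifi202b, adjacent on chromosome 1, held 76, 80 and 70 and 106, 173 and 152 in the controls. Ifi203 was at 0 in both colonies, at least 25.1-fold lower at a floor of 3 counts, and Ifi202b at 1 in both. Both are members of a family whose sequences resemble each other, and Ifi203 shares exon bases with Mndal on its strand, so their counts are uncertain. Itpripl2 stood at 3 and 5 against 199, 156 and 167.

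**Figure D2:**
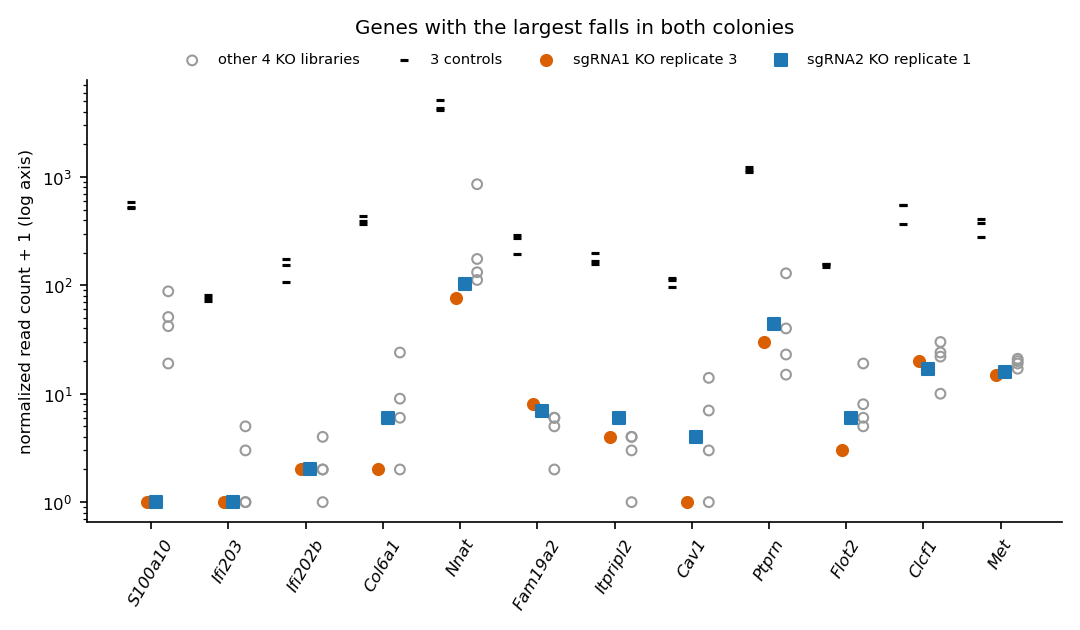
Normalized read count + 1 (log axis) of the 12 genes with the largest falls in the 2 colonies (x axis), with dashes for the 3 controls, a filled circle for the sgRNA1 colony, a filled square for the sgRNA2 colony and open circles for the other 4 KO libraries. S100a10 was at 0 in both colonies and at 18 to 87 in the other KO libraries.

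The 12 largest rises were those of Osr2, Esx1, Actc1, Rph3a, Gsg1l, Syndig1l, Clec3b, Ip6k3, Six2, Ackr4, Kcnn2 and Bmp3, all of which rose in limma, with adjusted p from 3.35e-05 to 0.00287. Osr2, an odd-skipped transcription factor of limb, kidney and palate development, was counted at 1, 5 and 3 in the controls, 206 in the sgRNA1 colony and 258 in the sgRNA2 colony. On the log2(value + 1) scale this was a difference of 5.83 and 6.16. The homeobox gene Esx1, known from placenta and testis, went from 2, 1 and 2 to 103 and 151. Six2, a homeobox factor of kidney progenitors, stood at 361 and 382 against 22, 28 and 30, and the other 4 KO libraries held 130 to 330. These 3 developmental factors are not typical of brain, and for Six2 the colonies were the highest of all 9 libraries.

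Rph3a, the synaptic vesicle protein rabphilin, was counted at 22, 17 and 16 in the controls and at 733 and 1252 in the colonies. Syndig1l, which encodes a relative of an AMPA receptor accessory protein, held 7, 1 and 7 and then 102 and 364. Gsg1l, a regulator of AMPA receptors, had 146 in the sgRNA1 colony and 50 in the sgRNA2 colony against 4, 1 and 0. Kcnn2, a calcium-activated potassium channel, went from 251, 146 and 185 to 2211 and 2422, yet the other 4 KO libraries held 4429 to 8337. Exons of Kcnn2 overlap those of A330093E20Rik and AC121957.1 on the opposite strand. Those of Syndig1l overlap Gm48573 and those of Ackr4 overlap Acad11, also on the opposite strand.

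Cardiac actin, Actc1, stood at 379 and 592 in the colonies, 21, 3 and 9 in the controls and 512 to 6159 in the other KO libraries. Bmp3, an antagonist of other bone morphogenetic proteins, held 62 and 53 against 7, 2 and 4, with 55 to 503 in the other KO libraries. Clec3b, the secreted plasminogen-binding protein tetranectin, was at 962 and 1467 against 60, 47 and 51. The sgRNA2 colony was the highest of all libraries for Clec3b. Ip6k3, an inositol hexakisphosphate kinase gene, and Ackr4, a scavenging chemokine receptor gene, stood at 183 and 179 and at 237 and 258, against 5 to 15 and 14 to 26.

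**Figure D3:**
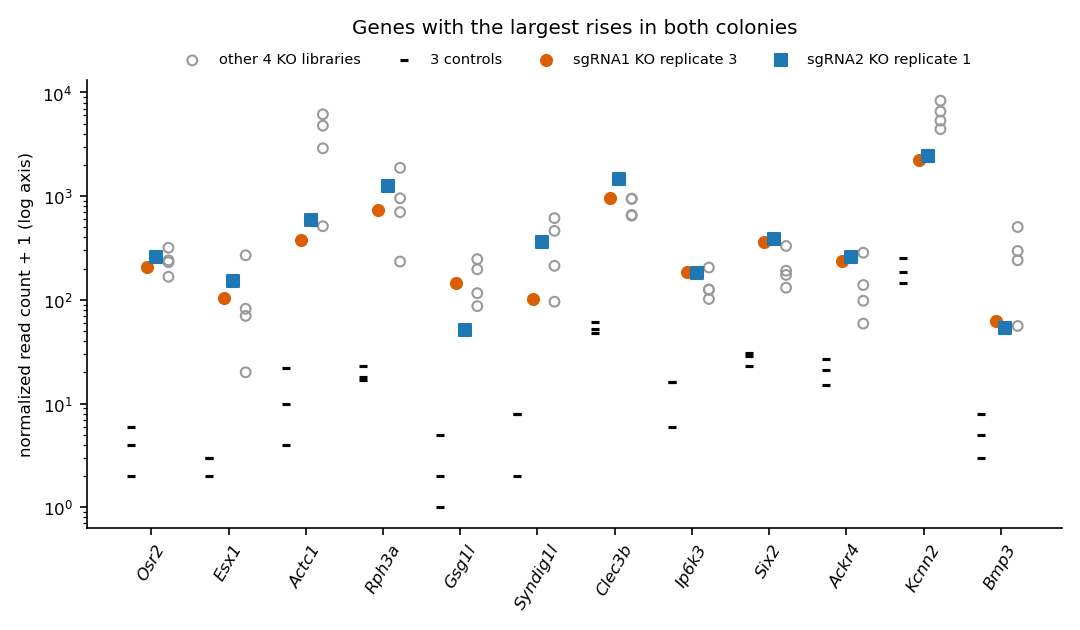
Normalized read count + 1 (log axis) of the 12 genes with the largest rises in the 2 colonies (x axis), with dashes for the 3 controls, a filled circle for the sgRNA1 colony, a filled square for the sgRNA2 colony and open circles for the other 4 KO libraries. Osr2 stood at 206 and 258 in the colonies against 1 to 5 in the controls, and Kcnn2 lay lower in the colonies than in the other KO libraries.

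Astrocyte genes were mixed. Of 21 described (22 listed), 6 were higher and 2 lower in both colonies, with medians of 0.33 and 0.56 against 0.81 to 1.61 in the other 4 KO libraries. S100b, a calcium-binding protein of astrocytes, was counted at 412, 201 and 230 in the controls, 4578 in the sgRNA1 colony and 1877 in the sgRNA2 colony. It rose in limma (adjusted p = 0.00169), and the sgRNA1 colony was the higher of the 2 colonies.

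Glutamine synthetase, Glul, held 40398 and 31912 against 11475, 10438 and 10704, and the glutamate transporter Slc1a2 held 9666 and 10738 against 3821, 2122 and 2352. Apoe, the main lipoprotein of astrocytes, stood at 34551 and 25482 against 11072, 6613 and 7134, well short of the 77778 to 201715 of the other KO libraries. Control replicate 1 was above the other controls for S100b, Slc1a2 and Apoe.

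Gfap, the intermediate filament of mature and reactive astrocytes, moved opposite to these. Its counts were 4827, 3348 and 3480 in the controls, 373 in the sgRNA1 colony and 999 in the sgRNA2 colony. While sgRNA1 KO replicates 1 and 2 held 16039 and 23509, sgRNA2 KO replicates 2 and 3 held 916 and 2118, also below every control. Clusterin, Clu, was at 449 and 682 against 2126, 2115 and 2157. It held 2689 and 2019 in sgRNA1 KO replicates 1 and 2, and 443 and 564 in sgRNA2 KO replicates 2 and 3. Neither Gfap nor Clu passed in limma (adjusted p = 0.721 and 0.0981), where 10 of the 21 members rose and 1 fell. In bulk RNA, fewer cells of a type and less RNA per cell cannot be told apart.

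Oligodendrocyte lineage genes, with 12 of 18 described, had medians of 0.72 and 0.99, and 2 were higher and 1 lower in both colonies. Gpr17, a receptor of committed precursors, was counted at 453, 181 and 255 in the controls, 912 in the sgRNA1 colony and 2314 in the sgRNA2 colony, and at 1326 to 10109 in the other KO libraries. Cnp, a myelin enzyme gene, held 9618 and 9155 against 5341, 4074 and 4388. Cldn11, the claudin of myelin, went the other way, from 184, 107 and 120 to 17 and 35. All 3 passed in limma in these directions (adjusted p = 0.00595, 0.00219 and 0.00229). Sox10, the lineage's transcription factor, stood at 26 and 104 against 26 to 50, and missed in limma (adjusted p = 0.230). In limma 5 of the 12 rose and 1 fell.

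Stem cell markers were close to control as a group, with medians of -0.09 and -0.16 over 23 described of 26 listed, and 1 higher and 2 lower in both colonies. Sox2, a core stem cell factor, was counted at 8756, 7105 and 7252 in the controls, 11565 in the sgRNA1 colony and 12389 in the sgRNA2 colony. It rose in limma (log2 0.94, adjusted p = 0.00851), and sgRNA2 KO replicate 3 reached 23374. Nestin, Nes, went from 37297, 46053 and 44266 to 24740 and 21931 and fell in limma (log2 -1.36, adjusted p = 0.00683), with 8451 to 18786 in the other KO libraries. Fut4, the enzyme of the CD15 epitope, had 1 and 7 against 25, 28 and 34 and missed in limma (adjusted p = 0.0704), but passed with a pseudocount of 5 (0.0397), quantile normalization (0.0472) or the replicate block (0.0436).

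Hes5, a Notch target, was the member higher in both, at 2309 and 3491 against 1289, 450 and 657. Of 22 Notch and Bmp genes described, 3 were higher in both colonies and 0 lower, with medians of 0.25 and 0.35 against 0.71 to 1.18 in the other 4. The Notch ligand gene Dll3 went from 320, 182 and 207 to 1062 and 1302, and Nrarp, a feedback inhibitor of Notch, from 576, 341 and 355 to 1094 and 1210. Hes1, another Notch target, did not follow, at 1781 and 904 against 1466 to 1484. In limma 8 of the 22 rose and 2 fell, with adjusted p of 0.00138 for Hes5, 0.00215 for Dll3, 0.00182 for Nrarp and 0.705 for Hes1.

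Of 16 neuron genes described (24 listed), 2 were higher and 2 lower in both colonies. Rph3a is given above. Syn2, a synaptic vesicle phosphoprotein, was counted at 1890, 1383 and 1585 in the controls and at 4346 and 4895 in the colonies. Gap43, a growth cone protein also made by glial progenitors, went from 2397, 2660 and 2550 to 363 and 319. Both passed in limma (adjusted p = 0.00369 and 0.00168). Of the markers of young neurons, Dcx held 2 and 34 against 4 to 6 and Tubb3 held 119 and 192 against 212 to 344, and neither passed (adjusted p = 0.0560 and 0.658 in limma). In limma 5 of the 16 rose and 1 fell.

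**Figure D4:**
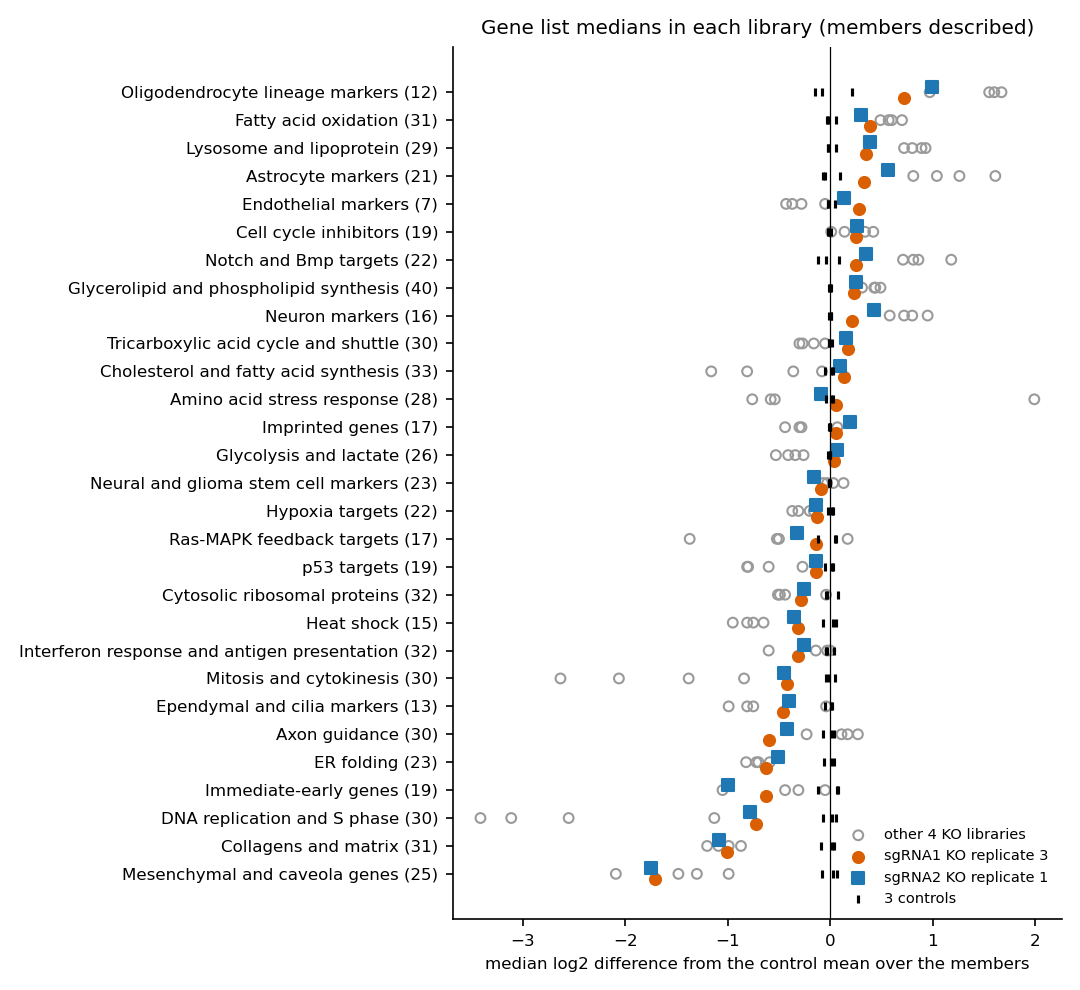
Median log2 difference from the control mean over the members of each gene list with at least 5 described (y axis, their number in parentheses) in the sgRNA1 colony (filled circles), the sgRNA2 colony (filled squares), the other 4 KO libraries (open circles) and the 3 controls (ticks). For DNA replication the colonies stand at -0.72 and -0.78, above the -3.41 to -1.13 of the other KO libraries, and for mesenchymal and caveola genes all 6 overlap.

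Axon guidance genes were lower in the colonies than in the other KO libraries by their medians, -0.60 and -0.42 over 30 described of 35 listed, against -0.23 to 0.27. By the 2-fold rule 7 were lower and 2 higher. Sema4d, a semaphorin that signals through plexin B receptors, was counted at 194, 199 and 231 in the controls and at 55 and 45 in the colonies. Sema5a, a semaphorin of integral membrane type, held 1219 and 1341 against 4490, 4889 and 5034, while sgRNA1 KO replicate 1 was at 4875, within the controls. Plxnb3, a plexin of oligodendrocytes, went the other way, from 1545, 1022 and 1073 to 5904 and 4123. Sema4d and Plxnb3 passed in limma (adjusted p = 0.00216 and 0.00150) and Sema5a missed (0.0826). In limma 6 of 31 members rose and 8 fell, near the 19.1% and 20.2% of all genes tested.

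Glycerolipid and phospholipid synthesis, the pathway fed by glycerol-3-phosphate, was slightly above control, with medians of 0.23 and 0.25 over 40 described of 45 listed. The other KO libraries had medians of 0.31 to 0.49. Of the 40, 21 lay above every control in both colonies, against 33.5% of all genes described. Below every control in both colonies lay 10, against 39.1%. Only Lpin3, a phosphatidate phosphatase gene, passed the 2-fold rule, at 182 and 184 against 670, 970 and 894. Lpin1, the better expressed relative, held 7649 and 9066 against 6173 to 6994. The glycerol kinase gene Gk, the alternative source of glycerol-3-phosphate, stood at 1198 and 1077 against 1182, 1324 and 1267 and missed in limma (adjusted p = 0.0538). Pld1, a phospholipase D gene, was at 6934 and 5264 against 3060 to 3502. In limma 17 of 41 members rose and 6 fell, Lpin3 among the falls (log2 -3.12, adjusted p = 0.00129).

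Fatty acid oxidation genes were slightly higher. Their medians were 0.39 and 0.30 over 31 described of 32 listed. Above every control in both colonies lay 24, against 33.5% of all genes described, and 0 passed the 2-fold rule. Acaa1a, a peroxisomal thiolase, was counted at 1086, 978 and 972 in the controls, 1770 in the sgRNA1 colony and 1754 in the sgRNA2 colony. Acadl, a long-chain acyl-CoA dehydrogenase, held 20399 and 19706 against 15895, 16207 and 16337. Both rose in limma (adjusted p = 0.00192 and 0.00854). Acsl3, which activates fatty acids for lipid droplets, was higher in the colonies (14187 and 13306 against 9126 to 9526) than in the other KO libraries (6024 to 11244), and missed in limma (adjusted p = 0.714). In limma 17 of the 31 rose and 1 fell.

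Glycolysis and lactate genes had medians near control in the colonies, 0.04 and 0.07 over 26 members, and of -0.53 to -0.26 in the other 4 KO libraries. Ldha, lactate dehydrogenase A, was counted at 21383, 21429 and 21026 in the controls, 19557 in the sgRNA1 colony and 18428 in the sgRNA2 colony, but at 5225 to 9974 elsewhere. It missed in limma (adjusted p = 0.0539). Single enzymes stood far out all the same. Pfkp, the platelet type phosphofructokinase, went from 1911, 2520 and 2413 to 298 and 377, and the muscle type Pfkm from 5171, 4793 and 4872 to 9327 and 7958. Hexokinase 2, Hk2, held 1206 and 1041 against 2235 to 2727, and hexokinase 1, Hk1, held 6634 and 7002 against 4117 to 4339.

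Pdk2, a kinase that turns off pyruvate dehydrogenase, was the 1 member higher by the 2-fold rule, at 1271 and 1245 against 452, 339 and 385. Pfkfb3, which makes the activator of phosphofructokinase, was lower in the colonies (1518 and 1429 against 3303 to 4316), as it was in sgRNA2 KO replicate 2 (1568), while the other 3 KO libraries held 3005 to 5234. Pfkp, Pfkm, Hk1, Hk2 and Pdk2 passed in limma, with adjusted p from 0.000419 to 0.0304, and Pfkfb3 missed (0.297). In limma 6 of the 26 rose and 5 fell, near the 19.1% and 20.2% of all genes tested.

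In the tricarboxylic acid cycle and shuttle list, the colonies were slightly above control and the other KO libraries slightly below, with medians of 0.17 and 0.15 against -0.30 to -0.05 over 30 members. Pyruvate carboxylase, Pcx, which refills the cycle, was the member past 2-fold, at 6701 and 6547 against 2164, 1875 and 1839 (limma adjusted p = 0.00284). Mdh1, the cytosolic malate dehydrogenase of the malate-aspartate shuttle, stood at 21067 and 19462 against 14138 to 16376, with 10546 to 14076 in the other KO libraries, and missed in limma (adjusted p = 0.700). Over the list 4 rose and 0 fell in limma.

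Cholesterol and fatty acid synthesis had medians of 0.13 and 0.10 over 33 described of 35 listed, against -1.16 to -0.08 in the other 4 KO libraries. Acss2, which makes acetyl-CoA from acetate, was counted at 1540, 1508 and 1514 in the controls, 3739 in the sgRNA1 colony and 4078 in the sgRNA2 colony. Both were above all other KO libraries (1104 to 3508), and Acss2 missed in limma (adjusted p = 0.112). The sterol enzyme gene Hmgcs1 held 72725 and 68427 against 52664 to 53796, with 12303 to 84815 in the other 4. In limma 1 of the 33 rose and 2 fell.

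Lysosome and lipoprotein genes had medians of 0.35 and 0.39 over 29 described of 30 listed, against 0.72 to 0.93 in the other 4 KO libraries. By the 2-fold rule 2 were higher, Apoe and the hexosaminidase gene Hexa (6466 and 6655 against 3160, 2927 and 2989), and 2 lower, Lpl and Clu. Over all genes described the shares were 4.62% higher and 4.8% lower. Lipoprotein lipase, Lpl, went from 833, 886 and 928 to 318 and 153. In limma 18 of the 29 rose and 2 fell.

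Folding genes of the endoplasmic reticulum had medians of -0.63 and -0.51 over 23 members, against -0.82 to -0.59 in the other 4 KO libraries. In both colonies 1 was past 2-fold. That was Hspa5, the BiP chaperone gene, at 19544 and 19086 against 36528, 41628 and 40129, and it fell in limma (log2 -1.27, SE 0.19, adjusted p = 0.00171). In limma 14 of the 23 fell and 1 rose. Heat shock genes had medians of -0.31 and -0.35 over 15 described of 16 listed, against -0.95 to -0.65 in the other 4 KO libraries. Hsp90aa1, the inducible HSP90 gene, came closest to 2-fold, at 4143 and 4082 against 7794, 9025 and 7796. Cytosolic ribosomal protein genes had medians of -0.28 and -0.26. Below every control in both colonies lay 32 of 32, against 39.1% of all genes described. Only Rps6, Rpl12 and Rpl10 passed 2-fold, each with at most 777 counts in any library. Many processed copies share their sequence, so reads of these genes may be split.

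The amino acid stress response had medians of 0.06 and -0.09 over 28 described of 30 listed. Its enzyme gene Asns stood at 3185 and 2734 in the colonies against 3142 to 3348 in the controls, and at 18063 in sgRNA2 KO replicate 3. The 2 members higher in both colonies were Nupr1, a stress-induced chromatin protein gene (169 and 168 against 34, 32 and 37), and Ddit4, an mTOR inhibitor gene (6402 and 8902 against 2947, 1956 and 2044). Nupr1 was at 9 to 30 in 3 other KO libraries and at 4851 in sgRNA2 KO replicate 3, and missed in limma (adjusted p = 0.537), while Ddit4 rose (adjusted p = 0.00116). In limma 3 of the 28 rose and 0 fell.

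Interferon and antigen presentation genes, with 32 described of 37 listed, had 7 lower and 2 higher in both colonies. The antiviral GTPase gene Mx2 was counted at 56, 38 and 38 in the controls, 205 in the sgRNA1 colony and 171 in the sgRNA2 colony, and Ifi44 at 4, 9 and 3 and then 24 and 21. Nlrc5, the activator of class I antigen presentation, went from 131, 133 and 136 to 36 and 49. The class I genes H2-K1 (1481 and 1716 against 1612 to 1656) and B2m (4282 and 3952 against 4058 to 4341) were near control and missed in limma (adjusted p = 0.0909 and 0.179). In limma 5 of the 32 rose and 8 fell, near the 19.1% and 20.2% of all genes tested.

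Of 19 p53 targets described (21 listed), 0 were higher in both colonies and 1 lower, near the 4.8% of all genes described. The lower member was Tnfrsf10b, a death receptor gene, at 233 and 136 against 432, 541 and 556. The other 4 KO libraries held 14 to 72. In limma 2 of the 19 rose and 6 fell, against 19.1% and 20.2% of all genes tested.

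Hypoxia targets, 22 described of 24 listed, had 1 higher and 4 lower, with Vegfa at 1554 and 1316 against 1247 to 1698. In limma 5 of the 22 rose and 5 fell, near the 19.1% and 20.2% of all genes tested. Imprinted genes, 17 described of 24 listed, had 1 higher and 2 lower. Besides Nnat and Cdkn1c, the growth regulator Plagl1 was counted at 240 and 209 against 500, 607 and 601. In limma 4 of the 17 rose and 6 fell, against 19.1% and 20.2% of all genes tested.

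Markers of cell types that a tumor culture could also hold were examined as well. The microglia list had 8 of 15 genes with a row, and C1qa, Cx3cr1, Itgam and Tyrobp were not among them. Its summed level was 830 to 911 in the controls and 1458 and 1457 in the colonies. P2ry12, which defines resting microglia, held 32 and 52 against 11, 12 and 19, whereas Aif1 was at 0 and 3, Csf1r at 5 and 2 and Ptprc at 0 and 2. In the other 4 KO libraries the list summed to 2015 to 2886. The endothelial list, with 10 of 13 genes and neither Cdh5 nor Cldn5 among them, summed to 807 to 842 in the controls, 499 and 494 in the colonies and 307 to 429 in the other KO libraries. Flt1, a VEGF receptor, stood at 55 and 66 against 449, 456 and 445, and Pecam1, which defines endothelium, at 9 and 13 against 5, 7 and 13. Without Flt1, left out after its values were seen, the other endothelial genes summed to 358 to 386 in the controls and to 444 and 428 in the colonies, with the angiopoietin receptor gene Tek at 123 and 106 against 38, 59 and 35.

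Pericyte and fibroblast genes, 7 of 12 with a row and neither Dcn nor Lum among them, summed to 527 to 721 in the controls, 965 and 1437 in the colonies and 1155 to 5200 in the other KO libraries. Most of this was Pdgfra (921 and 1390 against 420 to 613), which oligodendrocyte precursors also express. The pericyte gene Rgs5 was at 2 and 4 against 54, 66 and 75, and Pdgfrb at 3 and 0. Ependymal and cilia genes, 15 of 16 with a row, summed to 4801 to 5185 in the controls, 3318 and 3404 in the colonies and 2041 to 3483 in the other KO libraries, most of it the cilia regulator Foxj1 (2607 and 2694 against 3870 to 4241). The part of other cells in the results was not tested.

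Genes past 2-fold in both colonies while all other 4 KO libraries stayed within 1.5-fold of the control mean numbered 2 higher and 5 lower. This rule leaves out genes where the colonies lay between the controls and the other KO libraries, such as Ccne2 and Kcnn2, or beyond both, such as S100a10. With at least 50 counts on the higher side, only Wnk4 and Plxna4 were left. Wnk4, a kinase of ion transport, was counted at 211, 175 and 219 in the controls, 455 in the sgRNA1 colony and 529 in the sgRNA2 colony, and at 143 to 228 in the other KO libraries. Plxna4, a semaphorin receptor gene, held 62 and 69 against 151, 160 and 166, and 107 to 200 elsewhere. Both missed in limma (adjusted p = 0.501 and 0.480).

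The colonies also differed from each other, in part by genes where 1 of them stood near control. Gng2, a G protein gamma subunit gene, was counted at 1350, 1546 and 1300 in the controls, 17 in the sgRNA1 colony and 521 in the sgRNA2 colony. Syt13, an atypical synaptotagmin gene, held 9 in the sgRNA1 colony and 279 in the sgRNA2 colony against 266, 440 and 374. Luzp2 stood at 5 and 126 against 199, 151 and 137. The hyaluronan receptor gene Layn held 13 and 174 against 185, 227 and 223. For Syt13 the sgRNA2 colony lay inside the range of the controls, and for Luzp2 and Layn it lay just under it. Over all KO libraries Gng2 separated by guide, at 17 to 106 with sgRNA1 and 521 to 2497 with sgRNA2. Syt13 did so too, at 4 to 9 and 12 to 907.

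Nudt7, a peroxisomal hydrolase of coenzyme A, was at 10 and 118 against 127 to 152, and the lysosomal protease gene Ctsh at 31 and 345 against 437 to 522. In the other direction, Parvb, the focal adhesion protein parvin beta, held 133 in the sgRNA1 colony and 30 in the sgRNA2 colony against 120, 119 and 129. Glb1l2 was at 83 and 20 against 136 to 169, and the secreted protease-like gene Prss35 at 135 and 41 against 163 to 195. Ociad2, Scml4 and Slfn8 were far below control in both, at 73 and 21, 54 and 16, and 13 and 1, against at least 1110, 362 and 173 in the controls. Reads of Slfn8 may be shared with similar Schlafen genes. Prss35 (80 to 161 with sgRNA1, 27 to 41 with sgRNA2) and Ociad2 (31 to 122, 10 to 21) also separated by guide over all KO libraries. The other genes in this paragraph, and Luzp2 and Layn, overlapped between the guides. All were picked by the difference between the colonies, and a difference between guides was not tested.

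**Figure D5:**
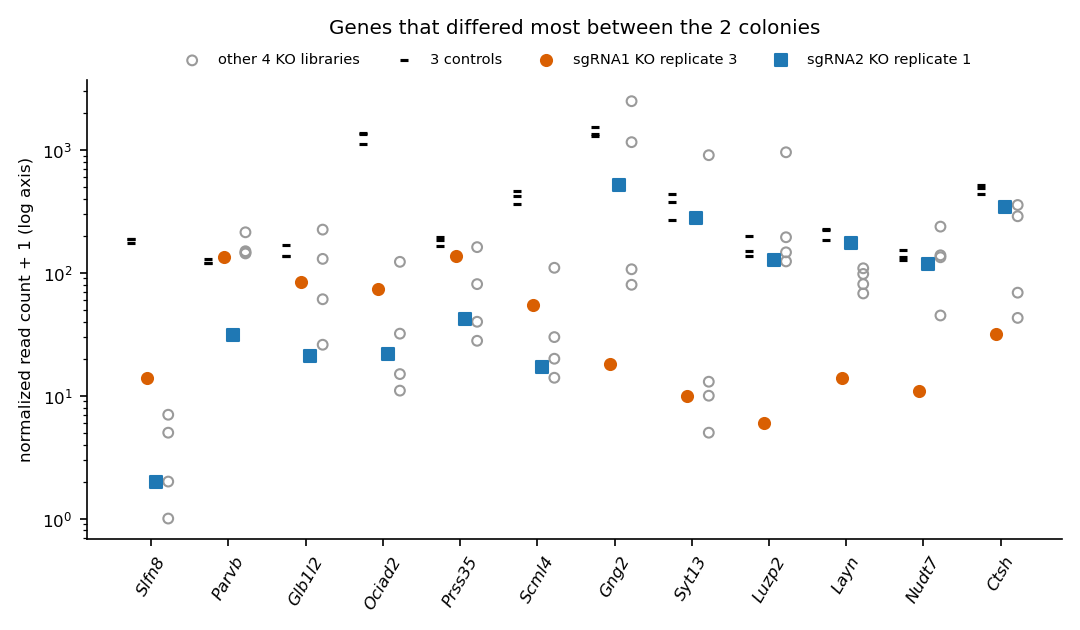
Normalized read count + 1 (log axis) of the 12 genes with the largest differences between the 2 colonies (x axis), with dashes for the 3 controls, a filled circle for the sgRNA1 colony, a filled square for the sgRNA2 colony and open circles for the other 4 KO libraries. Gng2 stood at 17 in the sgRNA1 colony and 521 in the sgRNA2 colony against 1300 to 1546 in the controls.

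By chromosome, median differences lay between -0.09 and 0.04 in the sgRNA1 colony and between -0.10 and 0.06 in the sgRNA2 colony. In sgRNA2 KO replicate 3 they reached from -0.18 to 0.45, the highest being that of chromosome 11. Cdc6 and Gfap, given above for that library, lie on chromosome 11. No chromosome of the 2 colonies stood as far out as the highest of that library.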

How the data were processed

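In the deposited table each gene has a score in each library, which is taken to be a normalized read count rounded to whole numbers by the authors. That unit was inferred from the values, which total 39781901 to 42975283 per library. STAR 2.4.1d, featureCounts, DESeq2 and build mm10 are named per the submitters' processing notes, and the annotation release is not given in the sources used here. Raw counts were not used here, so no count test was run.

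Libraries were grouped by the labels. The 2 colonies, their genes and the 32 gene lists were chosen with earlier results of these data known. Values were compared as log2(value + 1), which understates changes of genes with low counts. The colonies were set against the 3 controls without a test. These 5 libraries had 15543 genes whose mean reached 10, and the highest mean left out was 9.8. The 6 KO and 3 control libraries were tested by limma (version 3.58.1 in R 4.3.3), whose trend option fits the variance to the mean. The test was two-sided, covered the 15827 genes whose mean across the 9 libraries reached 10, and called a gene at a Benjamini-Hochberg adjusted p under 0.05. Tested on simulated data of 15670 genes, limma found 22 of 100 genes with a 2-fold change and 93 of 100 with a 4-fold change, and called 4 unchanged genes. The 2-fold rule for the colonies, tested on simulated data of 15174 genes, found 28 and 100 and called 4. A true 2-fold change lies on the limit of that rule, so the 28 does not measure its sensitivity. For the colonies, the changed genes did not include those with the lowest counts. Each simulation used 1 fixed extra spread for all genes, larger in that of limma, and the same true change in every changed library. Their counts therefore cannot be set side by side. True differences between KO libraries were not simulated, so these calls do not give the error rate on the real data. Library depth limits the precision of genes with few counts, and a library at 0 was given a floor of 3 counts, for counting error only.

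Named genes are Gpd1, Gpd1l and Gpd2, the 12 rises and 12 falls largest in the colony that changed less (at least 50 counts in every library of the higher side), up to 5 each way where the other 4 KO libraries stayed within 1.5-fold of control, the 6 largest differences between colonies each way (mean of at least 100), and up to 2 each way from each list. Further list members were named after their values were seen, and some members are not reported here. Positions and exon overlaps came from GENCODE M21 (mm10), which matched 21823 genes (99.7%), and promoters from RefSeq (GRCm38.p6). Overlaps are not given with every gene. Others with exons overlapping a gene on the opposite strand include Ptprn, Nnat, Gpr17, Cnp, Syn2, Hes5 and P2ry12. The guides were matched exactly in the Gpd1 transcript. The alternatives changed the pseudocount (0.5 or 5), the filter (none, or a mean of 50), the scaling, the fold limit and the replicate block, or left out libraries. Python 3.11.15 with pandas 2.3.3, numpy 2.4.6 and matplotlib 3.10.9 made the tables and figures.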

Additional observations from a re-analysis of the deposited data

Results flagged for a closer look

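Of 73 sets of 6 KO values examined, 8 held a library that stood apart from the others by Dixon's gap rule, each as the highest. That rule marks about 1 in 20 sets of normally distributed values. Gene counts were not put on a log scale and most genes were picked from these data, so the 8 cannot be set against that share. None of these libraries was 1 of the 2 colonies. In sgRNA1 KO replicate 1, Col6a1 stood at 23 (1 to 8 in the other KO libraries), Nnat at 855 (76 to 174), Ptprn at 128 (14 to 43), Flot2 at 18 (2 to 7) and Luzp2 at 958 (5 to 194). Ifi202b was at 3 in sgRNA1 KO replicate 2 against 0 to 1. In sgRNA2 KO replicate 3, Syt13 was at 907 (4 to 279) and the amino acid stress list had a median of 1.99 on the log2 scale (-0.76 to 0.06).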

How the results depend on the processing

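The number of genes called by limma in KO against control, 6227, ranged from 2759 to 7609 when each library was left out, and it was 3899, 2759 and 2987 without control replicates 1, 2 and 3. It stayed within 1.5 times under the other settings, with 7674 called without both colonies. The labels give the groups the same replicate numbers, but the deviations of same-numbered libraries correlated at -0.345 to 0.332, with 2 of 9 above 0.1 and 7 of 18 best with their own number, so the numbers were not used as pairs. With the replicate block 5786 genes were called. Genes higher in both colonies, 718, became 1286 with no filter, 403 with a mean of at least 50, 1685 at 1.5-fold and 122 at 4-fold. Genes lower in both, 746, became 1754 at 1.5-fold and 206 at 4-fold. Leaving out 1 library gave 679 to 1075 higher and 692 to 1093 lower, the upper ends resting on 1 colony alone. A wider fold limit or filter admits more genes by construction; the cause of the other shifts was not tested. Under changed pseudocounts, scaling or block, or without a control, 776 limma results for named genes kept their direction and side of the threshold, 24 no longer passed and 7 newly passed, and none reversed. Of the gene list medians, 89 moved by more than the spread of the controls and 359 did not, and of the named genes' differences in each colony 114 moved and 1300 did not. The depth of the libraries limits genes with few counts.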
